A study of Mus musculus with 12 samples.

Results

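The 10 ligands of the tumor necrosis factor (TNF) superfamily described here are Tnf, Lta, Ltb, Tnfsf4, Tnfsf8, Tnfsf9, Tnfsf10, Tnfsf13b, Tnfsf14 and Tnfsf15, taken by gene symbol from a table of 22243 genes, in which each had 1 transcript. They were measured by RNA sequencing in M1-activated bone marrow-derived macrophages (BM-Mɸs) of C57Bl/6 mice. The study's methods give an age of 8 to 12 weeks for purchased C57Bl/6J mice and none for these littermates. Marrow was grown in M-CSF from CMG14-12 conditioned medium, and every culture was activated with IFNγ (100 U/mL, 16 h), followed by LPS (100 ng/mL, 6 h). The 6 ErbB4myeKO mice were LysMCre/ErbB4-floxed, so that Cre was driven from the lysozyme 2 locus and acts in myeloid cells. The 6 ErbB4FF mice were littermates with the floxed ErbB4 gene and no Cre, and 1 mouse of each genotype came from each of 6 litters, labelled as batches A to F. A litter and its batch cannot be told apart, and there was no group without floxed alleles, without activation, or with Cre alone.

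Ligands of this family are mostly made as trimers anchored in the cell membrane, some of which are cut off and act at a distance. They bind receptors that recruit TRAF adaptors and turn on NF-κB, or that carry death domains and can start apoptosis. In macrophages LPS induces Tnf strongly through NF-κB, and the mRNA is short-lived because proteins of the tristetraprolin group bind AU-rich elements in its 3′ untranslated region. Lta and Ltb are known mainly from lymphocytes, Tnfsf10 (TRAIL) is an interferon-inducible death ligand, and Tnfsf4, Tnfsf8, Tnfsf9, Tnfsf14 and Tnfsf15 costimulate T cells.

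Ltb, Tnf and Lta lie side by side on chromosome 17, and their promoters are shown because neighbours 1157 to 3060 bases apart had very different levels. In GRCm38, GENCODE M21 places Ltb at 35194439 to 35196320 on the plus strand (ENSMUSG00000024399), Tnf at 35199381 to 35202007 on the minus strand (ENSMUSG00000024401) and Lta at 35203165 to 35205351 on the minus strand (ENSMUSG00000024402). The 250 bases before each RefSeq start (GRCm38.p6) are printed 5′ to 3′ on the gene's strand, at chr17:35202008-35202257 for Tnf, chr17:35205352-35205601 for Lta and chr17:35194257-35194506 for Ltb. Capitals mark matches on either strand to the letters GGG, any 5 bases and CC (NF-κB), TTC, any 3 bases and GAA (GAS), GAAA, any 2 bases and GAAA (ISRE), and TATAAA, and overlapping matches run together.
Tnf: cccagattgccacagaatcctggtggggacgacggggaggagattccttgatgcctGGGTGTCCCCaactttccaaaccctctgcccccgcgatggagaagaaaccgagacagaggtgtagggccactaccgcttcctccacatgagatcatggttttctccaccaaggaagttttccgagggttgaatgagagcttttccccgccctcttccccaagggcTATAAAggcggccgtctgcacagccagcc
Lta: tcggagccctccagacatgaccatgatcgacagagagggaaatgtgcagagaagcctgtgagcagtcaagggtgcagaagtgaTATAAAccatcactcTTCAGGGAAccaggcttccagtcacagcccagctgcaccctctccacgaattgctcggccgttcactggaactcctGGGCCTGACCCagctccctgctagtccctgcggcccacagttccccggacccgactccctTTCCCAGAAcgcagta
Ltb: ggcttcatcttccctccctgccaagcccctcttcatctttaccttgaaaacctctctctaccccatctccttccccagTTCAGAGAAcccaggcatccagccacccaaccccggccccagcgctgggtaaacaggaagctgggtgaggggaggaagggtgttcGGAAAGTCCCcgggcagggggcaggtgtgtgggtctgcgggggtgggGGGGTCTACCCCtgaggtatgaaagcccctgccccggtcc
The Tnf promoter held 1 NF-κB match that begins 194 bases before the start and a TATAAA 29 bases before it. The Lta promoter held 2 overlapping NF-κB matches, 2 GAS matches and a TATAAA 167 bases before the start, and the Ltb promoter held 4 NF-κB matches, 3 of them overlapping, and 1 GAS match. Of 32851 RefSeq promoters, the same 250 bases held the NF-κB letters in 45.8%, GAS in 7.02%, ISRE in 2.98% and TATAAA in 12.4%, so that the NF-κB letters alone are common. Promoters of 8 of the 10 ligands were in the RefSeq table, without those of Tnfsf4 and Tnfsf9. Neither Tnfsf10 nor Tnfsf15 held any of the 4 motifs in this window.

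The 3′ untranslated regions also differed among the neighbours, and the densest 30 bases of the AU-rich pentamer ATTTA are shown for Tnf (chr17:35199676-35199705) and Lta (chr17:35203407-35203436), on the transcript strand with ATTTA in capitals.
Tnf: ATTTAttATTTATTTAttATTTATTTAttt
Lta: ATTTAtggagagaaaagttaagttATTTAt
The Tnf window held 5 pentamers, a density found in 60 of the 25879 transcripts of the table that have at least 30 bases after the stop codon (0.232%). Over its whole 3′ untranslated region Tnf had 8 ATTTA in 764 bases, Lta had 3 in 572 bases and Ltb had 0 in 156 bases. Tnfsf8 and Tnfsf10 had 10 and 8, but in longer regions of 2799 and 3998 bases, with at most 2 in any 30 bases, a density held by 16.7% of transcripts. All these are matches of letters and not tests of binding or decay.

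The authors deposited TPM, a level scaled to transcript length and to the whole library, for principal transcripts only, which held between 59.0% and 74.7% of each library's total. The read depth of each library is unknown here. Erbb4, the targeted gene, ranged from 0.280 to 0.852 TPM in the libraries labelled ErbB4myeKO and from 0.372 to 0.716 TPM in those labelled ErbB4FF. Its median was higher in the libraries labelled ErbB4myeKO (0.623 against 0.404 TPM), which held the higher value in 4 of 6 litters, and TPM of a whole transcript do not resolve the floxed exon. Lyz2, whose locus carries the Cre insertion, was between 43.4% and 57.0% of the littermate in the libraries labelled ErbB4myeKO of litters 1 to 5. In litter 6 it went against the labels, at 7997 TPM in the library labelled ErbB4myeKO and 2964 TPM in the library labelled ErbB4FF. Fcgr1, a macrophage marker, was lower in the library labelled ErbB4myeKO in all 6 litters, at 134 against 218 TPM in litter 6. Whether the labels of litter 6 were exchanged was not tested, and every count over 6 litters rests on these labels. Genotypes here are those of the labels, litter 6 included, and the genotype difference of each ligand is also given without litter 6. Litters 5 and 6 stood apart from litters 1 to 4, with summed TPM of 10 neutrophil markers between 155 and 375 against 41.3 to 74.5. Most of this sum was S100a8 and S100a9, with means of 63.8 and 38.1 TPM over the 12 libraries. Ly6g, Mpo, Elane, Ltf and Cxcr2 had means under 1 TPM, so that the sum is no measure of neutrophils alone. In litter 6 this sum was 375 TPM in the library labelled ErbB4myeKO and 155 TPM in its littermate, and its part in that litter's ligand ratios was not tested. Summed TPM of 4 Y-linked genes were between 0.202 and 0.406 in litters 5 and 6 and between 36.1 and 49.2 in litters 1 to 4. They were alike in both littermates. The study used male and female littermates and adjusted its own test for sex, which no label gives here. Any effect of sex cannot be told apart from litter.

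TNF itself outweighed all other ligands. Of the summed TPM of the 10 ligands, Tnf held between 88.3% and 97.6% in the 12 libraries. In the ErbB4FF libraries the mean TPM fell in the order Tnf, Tnfsf9, Tnfsf15, Tnfsf10, Tnfsf4, Lta, Ltb, Tnfsf8, Tnfsf14 and Tnfsf13b, from 2053 ± 1638 TPM (SD, n = 6) for Tnf to values near 0. The TPM of Tnf were 12.9 to 125 times those of Tnfsf9, the next in order, and 302 to 1853 times those of its neighbour Lta in the same library.

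**Figure D1:**
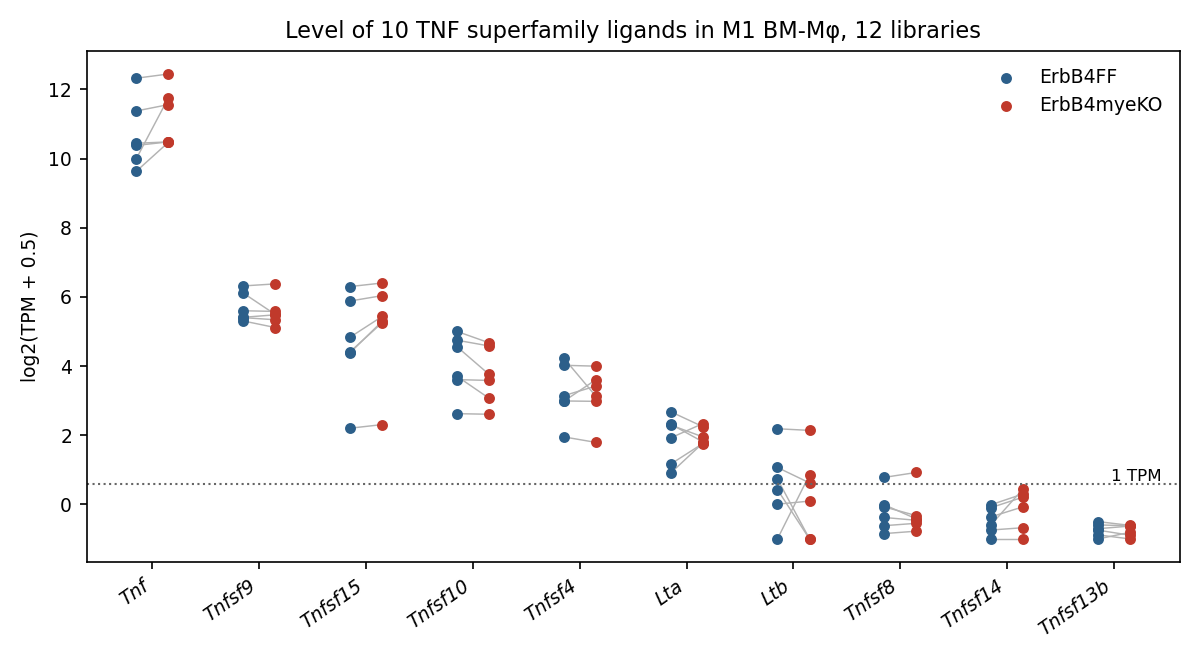
Level of each ligand as log2(TPM + 0.5), ErbB4FF in blue and ErbB4myeKO in red, with lines joining littermates and a dotted line at 1 TPM. Tnf stands above all other ligands in every library, and the 3 ligands at the right have means under 1 TPM.

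Of the 9 neighbouring steps in this order, 2 had the same sign in all 6 ErbB4FF libraries. These were Tnf over Tnfsf9, with a difference of 5.002 ± 0.96 on the log2(TPM + 0.5) scale (SD, n = 6), and Tnfsf4 over Lta, with 1.34 ± 0.85 (SD, n = 6; two-sided exact permutation p = 0.0312 each, adjusted over 9 steps 0.141). The order was set by the mean TPM of these same libraries, so that the direction of each step was not free. With 6 libraries no exact p can be below 0.0312, and 0 of the 9 steps passed after adjustment. Tnfsf9 over Tnfsf15, Tnfsf15 over Tnfsf10, Lta over Ltb, Ltb over Tnfsf8, Tnfsf8 over Tnfsf14 and Tnfsf14 over Tnfsf13b differed by less than their SD between libraries. In the ErbB4myeKO libraries the order was the same except that Tnfsf14 stood above Tnfsf8. There 3 steps had the same sign in all 6 libraries, Tnf over Tnfsf9, Lta over Ltb and Tnfsf8 over Tnfsf13b, and Tnfsf4 was above Lta in 5 of 6 (exact permutation p = 0.0625).

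Counting error sets a floor under the lower levels. The authors' deposited mean of log counts corresponds to a geometric mean of 18288 normalized estimated counts for Tnf, 586 for Tnfsf15, 436 for Tnfsf10, 325 for Tnfsf9, 90.8 for Tnfsf4 and 25.5 for Lta, but only 7.19 for Tnfsf8 and 4.23 for Ltb. No such value was listed for Tnfsf14 and Tnfsf13b. Mean TPM over the 12 libraries reached the filter of 1 TPM for 7 ligands, and Tnfsf8, Tnfsf14 and Tnfsf13b lay under it.

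The comparison of genotypes asks whether loss of ErbB4 in myeloid cells changes these mediators. Tnfsf15 and Tnf were higher and Tnfsf10 was lower in the ErbB4myeKO library of all 6 litters, by 1.37-fold, 1.42-fold and to 79.6% of the littermate. None of the 10 passed an adjusted p of 0.05 in limma with litter as a block. Tnfsf8, Tnfsf14 and Tnfsf13b, which lie under the filter, were read from a fit without it. The main fit took log2(TPM + 0.5) of the 8780 genes over the filter. Across those genes 0.0% passed (smallest adjusted p 0.603). At an unadjusted p under 0.05 there were 2 of the 7 ligands over the filter, Tnfsf15 and Tnfsf10, where 8.21% of all genes did so, 3.83% as higher and 4.38% as lower. In all 6 litters 3 of the 7 went the same way, against 4.82% of all genes (2.51% higher and 2.31% lower). Mean log2 ratios were above 0 for 3 and below 0 for 4 of the 7, with a median of -0.07 beside -0.00068 for all genes tested. Without litter 6, where 5.84% of all genes had an unadjusted p under 0.05, 1 ligand, Tnfsf15, was under that p. The median over the 7 was then 0.14, and 0 ligands passed after adjustment. Tnf and Tnfsf10 are among the genes that the study itself drew from these samples, and the 10 ligands were listed with such results known, so that these counts are descriptions.

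**Figure D2:**
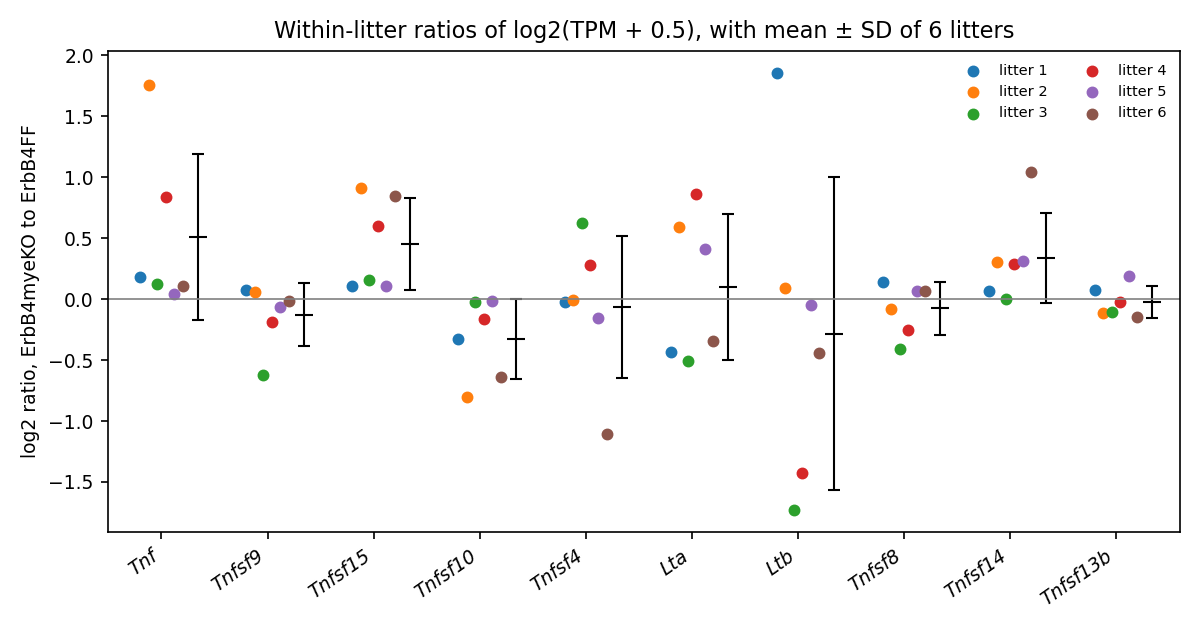
Log2 ratio of ErbB4myeKO to ErbB4FF within each litter (colored points), on the log2(TPM + 0.5) scale, with the mean and SD of 6 litters in black. All 6 points lie above 0 for Tnf and Tnfsf15 and below 0 for Tnfsf10, whereas the points of the other ligands fall on both sides or, for Tnfsf14, touch 0.

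Tnfsf15 (ENSMUSG00000050395, chromosome 4, 63727084 to 63745113), which encodes TL1A, a costimulator of T cells through DR3, had the smallest p of the ligands. In the ErbB4myeKO libraries of litters 1 to 6 it was 84.0, 38.7, 65.1, 42.7, 4.45 and 37.6 TPM. In the ErbB4FF libraries it was 78.2, 20.4, 58.4, 28.0, 4.10 and 20.8 TPM. The genotypes overlapped widely, because litters differed far more than littermates, and the higher of each pair was ErbB4myeKO. The log2 ratio was 0.45 ± 0.38 (SD, n = 6 litters), between 0.10 in litters 1 and 5 and 0.91 in litter 2 (two-sided exact permutation p = 0.0312, the smallest that 6 litters allow). In limma the standard error was 0.14, the 95% interval 0.13 to 0.77 and the unadjusted p 0.0120, rank 109 of the 8780 genes, with an adjusted p of 0.603. With any 1 litter left out the mean lay between 0.36 (without litter 2) and 0.52 (without litter 1), and limma's unadjusted p between 0.00988 and 0.0399. Without litter 6 it was 0.37 (unadjusted p 0.0399 in limma), and without litters 5 and 6 together it was 0.44.
Ccr7, Xcr1 and Clec9a, the only 3 of 8 dendritic cell markers with a mean of at least 1 TPM, were also higher in ErbB4myeKO in 5 of 6 litters each, although the mean of Clec9a was 1.65 TPM in ErbB4myeKO and 1.70 TPM in ErbB4FF. Flt3, Zbtb46 and Dpp4, all with means under 1 TPM, were higher in ErbB4myeKO in 2 of 6 litters each. The summed dendritic cell markers were 44.5 to 122 TPM in ErbB4myeKO (median 65.2) and 30.6 to 94.0 TPM in ErbB4FF (median 45.0), with Siglech and Cd209a listed at 0 in all 12 libraries. Ccr7 is also in the M1 gene set that the study tested, so that in these cultures it need not mark dendritic cells. It had means of 53.5 and 41.7 TPM. Without Ccr7 the summed dendritic cell markers were 9.43 to 33.6 TPM (median 14.2) and 4.56 to 25.5 TPM (median 12.1). Their part in the Tnfsf15 difference was not tested.

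Tnf, the founding member and main inflammatory product of LPS-activated macrophages, was 3019, 3455, 5576, 1418, 1429 and 1430 TPM in the ErbB4myeKO libraries of litters 1 to 6. In the ErbB4FF libraries it was 2658, 1022, 5125, 794, 1391 and 1332 TPM. The 2 libraries of litter 3 were the highest of their groups, and the difference between littermates was large in litters 2 and 4 and small in the other 4. The fold of ErbB4myeKO over ErbB4FF was 3.38 in litter 2 and 1.79 in litter 4, and between 1.03 and 1.14 in litters 1, 3, 5 and 6. The log2 ratio was 0.51 ± 0.68 (SD, n = 6 litters, two-sided exact permutation p = 0.0312), with a standard error of 0.23, a 95% interval of -0.03 to 1.04 and an unadjusted p of 0.0608 in limma (adjusted p 0.603). Without litter 2 the mean was 0.26, the lowest with any 1 litter left out, and it was 0.59 without litter 6 and 0.72 without litters 5 and 6 together. Of the 31-mers of the Tnf transcript 87.1% also occur in the other Tnf transcript of GENCODE M21, which is not in the table, so that reads could be shared between them.

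**Figure D3:**
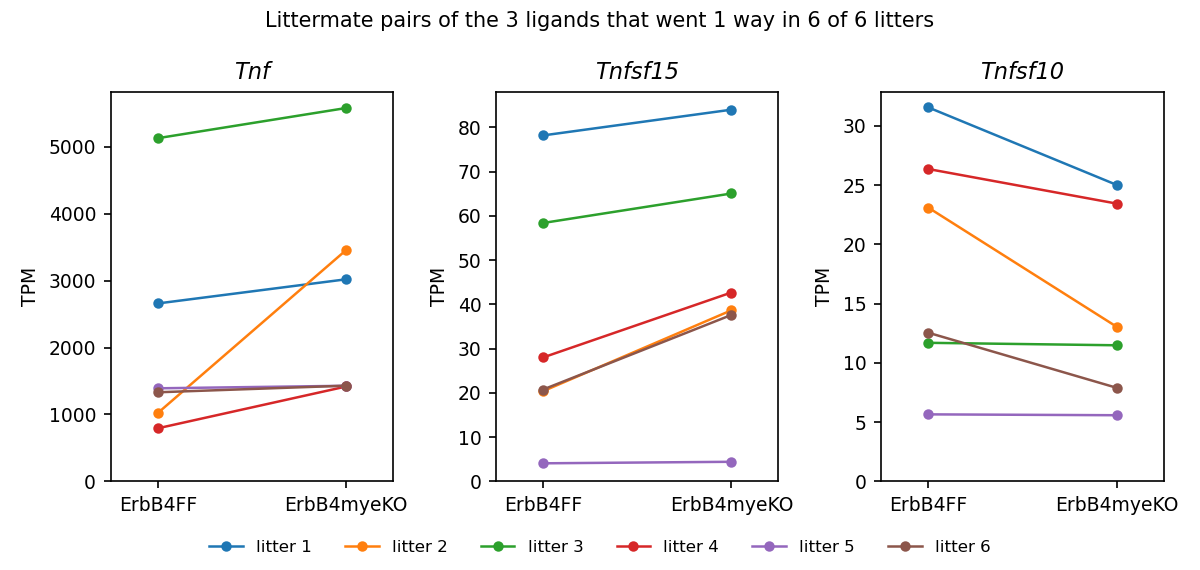
TPM of Tnf, Tnfsf15 and Tnfsf10 in each littermate pair, with 1 color per litter and axes from 0. Lines for Tnf and Tnfsf15 go up and those for Tnfsf10 go down from ErbB4FF to ErbB4myeKO in all 6 litters, with the steepest Tnf line in litter 2.

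Tnfsf10 (ENSMUSG00000039304, chromosome 3, 27317028 to 27342427), which encodes TRAIL, was 25.02, 13.1, 11.5, 23.4, 5.59 and 7.90 TPM in the ErbB4myeKO libraries of litters 1 to 6. In the ErbB4FF libraries it was 31.6, 23.1, 11.7, 26.4, 5.66 and 12.5 TPM. The pairs of litters 3 and 5 were almost level, and the largest gaps were in litters 2 and 6, where ErbB4myeKO reached 57.4% and 64.4% of the littermate. The log2 ratio was -0.33 ± 0.33 (SD, n = 6 litters, two-sided exact permutation p = 0.0312), with a standard error of 0.13, a 95% interval of -0.62 to -0.03 and an unadjusted p of 0.0329 in limma (adjusted p 0.603). The mean was -0.23 without litter 2 and -0.27 without litter 6, and limma's unadjusted p was then 0.0877 and 0.0968. It was also above 0.05 without litter 1, at 0.0680.
Of a list of 19 interferon targets, all over the filter, 17 had log2 ratios below 0 and 6 of these had an unadjusted p under 0.05, where 4.38% of all genes were lower at that p. The median was -0.24, beside -0.00068 over all genes, and 0 passed after adjustment. Without litter 6 there was 1 in place of 6, Mx1, where 3.18% of all genes were lower at that p. The median was then -0.18 with 17 still below 0, beside 4515 of all 8780 genes. Cxcl10, Oas1a and Isg15, the 3 with the smallest p, had log2 ratios of -0.18, -0.26 and -0.30 (standard errors 0.06, 0.09 and 0.12), lower in 6, 5 and 5 litters. Their unadjusted p in limma without litter 6 was 0.0675, 0.0621 and 0.125, at log2 ratios of -0.13, -0.25 and -0.24. Any link of these targets to the Tnfsf10 difference was not tested.

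Lta, which encodes lymphotoxin α, a soluble ligand of both TNF receptors, was 4.25, 2.88, 3.01, 2.91, 4.54 and 3.37 TPM in ErbB4myeKO and 5.91, 1.74, 4.50, 1.37, 3.29 and 4.41 TPM in ErbB4FF, litters 1 to 6. It was higher in ErbB4myeKO in 3 litters and lower in 3. The values of ErbB4myeKO lay within the range of ErbB4FF, whose SD was 1.75 TPM against 0.728 TPM. Its log2 ratio averaged 0.10 ± 0.60 (SD, n = 6 litters, exact permutation p = 0.688), with a 95% interval of -0.42 to 0.62 in limma, and it was 0.19 without litter 6. Lta and Tnf thus differed in litters 1, 3 and 6, where Tnf was higher and Lta lower in ErbB4myeKO.
Ltb, which encodes lymphotoxin β, the membrane partner that makes a ligand for LTβR, was 1.31, 0.568, 0, 0, 3.91 and 1.04 TPM in ErbB4myeKO, and in ErbB4FF it was 0, 0.504, 1.16, 0.844, 4.05 and 1.59 TPM. Both libraries of litter 5 were far above the others, and 3 libraries were listed at 0. The log2 ratio of -0.28 ± 1.28 (SD, n = 6 litters, exact permutation p = 0.656) rests on these 0 values, since the 3 largest ratios in size, those of litters 1, 3 and 4, each had a library at 0. With a pseudocount of 0.1 it was -0.59, without litter 1 it was -0.71, and without litter 6 it was -0.25. Without litter 4 it was -0.056, and without litter 3 it reversed to 0.0053. Of the 31-mers of the Ltb transcript 92.6% also occur in other Ltb transcripts.

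Tnfsf9 (ENSMUSG00000035678, chromosome 17, 57105325 to 57107757), which encodes 4-1BB ligand, was 44.2, 82.5, 44.5, 34.1, 39.9 and 47.3 TPM in ErbB4myeKO. In ErbB4FF it was 42.0, 79.2, 68.6, 39.0, 41.7 and 48.0 TPM. Littermates were close except in litter 3, and both libraries of litter 2 were the highest of their groups. On average the log2 ratio was -0.13 ± 0.26 (SD, n = 6 litters, exact permutation p = 0.312), with a 95% interval of -0.36 to 0.11 in limma, and it was -0.03 without litter 3 and -0.15 without litter 6. Of its 31-mers 12.9% occur in transcripts of other genes.
Tnfsf4 (ENSMUSG00000026700, chromosome 1, 161395409 to 161418410), which encodes OX40 ligand, was 15.5, 7.39, 11.7, 10.2, 2.96 and 8.24 TPM in ErbB4myeKO and 15.7, 7.45, 7.39, 8.32, 3.37 and 18.3 TPM in ErbB4FF. Litters 1 and 2 were almost level, litters 3 and 4 were higher and litters 5 and 6 lower in ErbB4myeKO. Its mean log2 ratio was -0.07 ± 0.58 (SD, n = 6 litters, exact permutation p = 0.781), with a 95% interval of -0.55 to 0.41 in limma, and without litter 6 it was 0.14.
Tnfsf8 (ENSMUSG00000028362, chromosome 4, 63831308 to 63861347), which encodes CD30 ligand and lies 86194 bases from Tnfsf15, was 1.40, 0.227, 0.247, 0.298, 0.0844 and 0.184 TPM in ErbB4myeKO. In ErbB4FF it was 1.22, 0.269, 0.492, 0.450, 0.0568 and 0.152 TPM. Litter 1 held the only values over 1 TPM in both genotypes. The mean over litters was a log2 ratio of -0.08 ± 0.22 (SD, n = 6 litters, exact permutation p = 0.438), which was -0.010 without litter 3 and -0.11 without litter 6. Tnfsf8 thus had no value over 1.40 TPM while its neighbour Tnfsf15 reached 84.0 TPM, both of them in litter 1.

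Tnfsf14 (ENSMUSG00000005824, chromosome 17, 57189492 to 57194177), which encodes LIGHT and lies 81734 bases from Tnfsf9, was 0.126, 0.657, 0, 0.453, 0.733 and 0.869 TPM in ErbB4myeKO. In ErbB4FF it was 0.0980, 0.438, 0, 0.279, 0.494 and 0.166 TPM. The library labelled ErbB4myeKO was the higher in 5 litters, and both libraries of litter 3 were listed at 0. The log2 ratio was 0.34 ± 0.37 (SD, n = 6 litters, exact permutation p = 0.0625), and without the filter limma gave an adjusted p of 0.764. Litter 6 had a ratio of 1.04, and without it the mean was 0.19. With a pseudocount of 0.1 the mean was 0.60 and with 1 it was 0.22.
Tnfsf13b (ENSMUSG00000031497, chromosome 8, 10006467 to 10039072), which encodes the B cell survival factor BAFF, was at most 0.156 TPM in ErbB4myeKO and 0.208 TPM in ErbB4FF, with 1 library of each listed at 0. Its log2 ratio averaged -0.02 ± 0.13 (SD, n = 6 litters, exact permutation p = 0.719), and without litter 6 it was 0.0030. The table holds 1 of the 2 coding transcripts that GENCODE M21 gives this gene, ENSMUST00000207792 of 4771 bases. The other, ENSMUST00000033892 of 1239 bases, is marked as an alternative by APPRIS and was not analysed here, so that these values are not the level of the whole gene.

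Levels varied widely between litters. The SD of the 6 litter means on the log2(TPM + 0.5) scale was 1.43 for Tnfsf15, larger than in 97.7% of the genes tested, beside a median of 0.41 over all genes. It was 0.94 for Ltb, 0.85 for Tnf, 0.84 for Tnfsf10 and 0.74 for Tnfsf4, and 0.44 for Lta and 0.41 for Tnfsf9. Tnfsf15 covered a 17.1-fold range between litter means, Ltb 5.46-fold, Tnf 5.04-fold, Tnfsf10 4.67-fold and Tnfsf4 4.399-fold, and Tnfsf9 and Lta about 2.2-fold each.

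**Figure D4:**
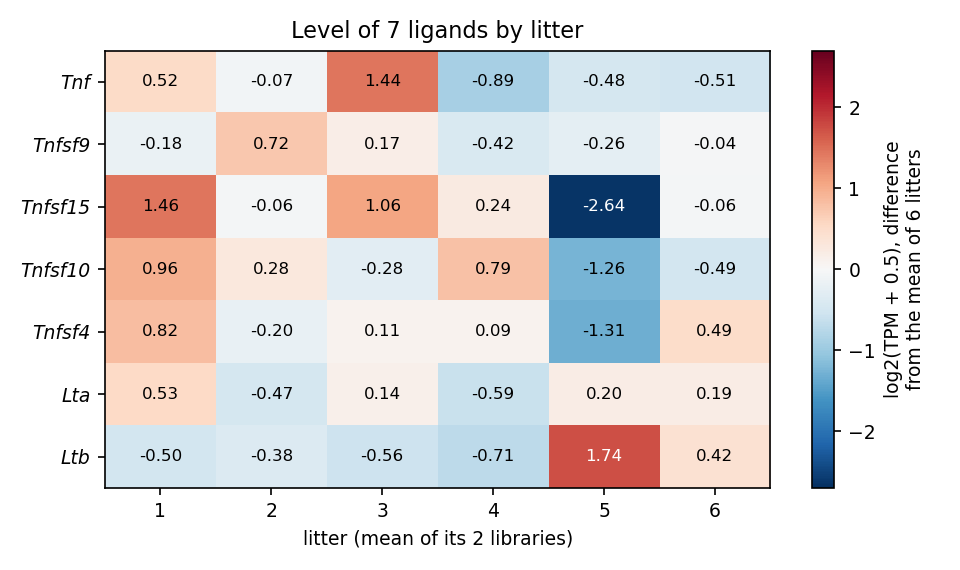
Mean log2(TPM + 0.5) of the 2 libraries of each litter, as the difference from the mean of 6 litters, for the 7 ligands over the filter. Litter 5 was low for Tnfsf15 (-2.64), Tnfsf4 (-1.31) and Tnfsf10 (-1.26) and high for Ltb (1.74), litter 1 was high for the same 3, and Tnf was highest in litter 3 (1.44).

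Litter 5 was the lowest of the 6 for Tnfsf15, Tnfsf4 and Tnfsf10 and the highest for Ltb. Litter 6, which shared with litter 5 the low Y-linked sum and the high sum of neutrophil markers, departed from litter 5 for Tnfsf4 (0.49) and Tnfsf15 (-0.06). It went the same way as litter 5 for Tnfsf10 (-0.49) and Ltb (0.42). Over the 12 libraries Tnfsf4 and Tnfsf15 had a Pearson r of 0.793, Tnfsf4 and Tnfsf10 0.681 and Tnfsf10 and Tnfsf15 0.667, while Ltb and Tnfsf15 had -0.759. These r are descriptions over libraries of which each litter gave 2. Tnf and Tnfsf10 had -0.043.

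The genes whose log2 levels followed a ligand most closely over the 12 libraries were taken by Pearson r among the 8780 genes, which picks high r by construction. For Tnf these were Stard4, a carrier of cholesterol, Il23a, the p19 subunit of IL-23, and Maff, a small MAF transcription factor (r = 0.954, 0.953 and 0.952), and without the 2 libraries of litter 3 r was between 0.906 and 0.918. For Tnfsf15 they were Rdx, Lilr4b and Erap1 (r = 0.978, 0.975 and 0.972), with 0.890 to 0.955 without the 2 libraries of litter 5. For Tnfsf10 they were Aftph, Etnk1 and Arid4a (r = 0.978, 0.964 and 0.957). Tnfsf4 was followed most closely by Zmpste24, Ly9 and Os9 (r = 0.925, 0.913 and 0.908), and Ltb by Srp9, Chchd6 and Pfdn6 (r = 0.924, 0.915 and 0.915). Lta was followed by Eif6, Ifnb1 and Csf2 (r = 0.908, 0.877 and 0.875), where Ifnb1 had 0.524 without the 2 libraries farthest from the median. Tnfsf9 had the loosest match, with Yy1, Ddi2 and Sin3b (r = 0.822, 0.800 and 0.791), and for Sin3b r was 0.299 without the 2 libraries of litter 2.

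Receptors of the ligands ranged from 739 TPM to 0 TPM on average in ErbB4FF. Tnfrsf1b and Tnfrsf1a, which bind TNF and lymphotoxin α, were 739 ± 212 and 147 ± 24.2 TPM in ErbB4FF (SD, n = 6), and Ltbr was 51.7 ± 6.03 TPM. Tnfrsf14, a receptor of LIGHT, was 19.7 ± 9.76 TPM and Tnfrsf13b, a receptor of BAFF, was 8.13 ± 3.87 TPM. Tnfrsf25, the receptor of TL1A, and Tnfrsf17, another receptor of BAFF, were listed at 0 in all 6 ErbB4FF libraries, and Tnfrsf10b, the mouse TRAIL receptor, had a mean under 1 TPM. Of 15 receptors 7 passed the filter, 0 of them with an unadjusted p under 0.05, beside 8.21% of all genes, with a median log2 ratio of -0.07. Tnfrsf8, the receptor of CD30 ligand, was lower in ErbB4myeKO in 6 of 6 litters, as were 2.31% of all genes (log2 ratio -0.30 ± 0.55, SD, exact permutation p = 0.0312, adjusted p 0.668 in limma), with -0.34 without litter 6. Without that litter 0 of the 7 were under the unadjusted p, beside 5.84% of all genes.

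Other genes of the pathway were counted at an unadjusted p under 0.05, which 8.21% of all genes reached, 3.83% as higher and 4.38% as lower. Of 24 proximal signalling genes, all over the filter, 0 were higher and 1 lower, Otulin, a deubiquitinase of linear chains (log2 ratio -0.29, standard error 0.11). Of 7 shedding and processing genes 1 was higher, Adam17, the protease that releases TNF, with 113 ± 28.5 TPM in ErbB4myeKO and 102 ± 28.0 TPM in ErbB4FF (SD, n = 6; log2 ratio 0.16, standard error 0.06, higher in 5 of 6 litters). Of 8 genes that regulate cytokine mRNA 0 passed in either direction. Of 19 NF-κB targets 2 were higher, Cxcl1 and Ptgs2 (log2 ratios 1.14 and 0.60), and 1 was lower, Bcl3 (-0.32), with a median of 0.11. Of 8 further ligands of the family Tnfsf12 and Tnfsf13 passed the filter, with log2 ratios of -0.23 and 0.08, and of -0.13 and -0.17 without litter 6. Without litter 6, where 5.84% of all genes reached that p, Adam17 stayed under it (0.0491) and Zfp36l2, which destabilizes AU-rich mRNA, came under it as lower (log2 ratio -0.26), while Otulin, Cxcl1, Ptgs2 and Bcl3 were at 0.0835, 0.0526, 0.0704 and 0.0530 in limma. Their log2 ratios were then -0.28, 1.12, 0.61 and -0.33. All genes named here had an adjusted p of 0.603 or more in limma.

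The cultures carried macrophage markers throughout. The 7 macrophage markers summed to 4981 to 9857 TPM in ErbB4myeKO and 5088 to 14835 TPM in ErbB4FF, lower in ErbB4myeKO in 5 of 6 litters, the exception being litter 6 with 9857 and 5088 TPM. Without Lyz2, the locus that carries Cre, the sums were 1650 to 2355 (median 1960) and 1578 to 2466 TPM (median 2150). They were lower in ErbB4myeKO in 5 of 6 litters, litter 6 included. The exception was then litter 5, with 1650 and 1578 TPM. Adgre1, Csf1r and Cd68 were close between genotypes, with means of 881 and 873, 349 and 345, and 413 and 446 TPM, higher in ErbB4myeKO in 4, 3 and 3 litters. Itgam had means of 114 and 132 TPM and was higher in ErbB4myeKO in 1 litter. Fcgr1, a receptor for IgG, was lower in ErbB4myeKO in 6 of 6 litters (means 114 and 212 TPM), as were 2.31% of all genes. Mertk, a receptor for apoptotic cells, was higher in 6 of 6 (means 122 and 113 TPM), as were 2.51% of all genes. The part of these markers in the ligands' differences was not tested. The 14 T, B and NK cell markers, the cells best known for Lta, Ltb and Tnfsf8, summed to 0.436 to 3.75 TPM in ErbB4myeKO and 0.761 to 3.35 TPM in ErbB4FF, and Cd4 alone had a mean of at least 1 TPM. The summed lymphocyte markers of litters 1 to 6 were 3.75, 0.436, 0.447, 0.702, 3.47 and 2.72 TPM in ErbB4myeKO. In ErbB4FF they were 2.79, 1.06, 0.761, 2.25, 3.01 and 3.35 TPM. Ltb was highest in litter 5, next in litter 6 by litter mean, and 1.31 and 0 TPM in litter 1. The part of these cells in the Ltb levels was not tested. In bulk RNA, fewer cells of a type and less RNA per cell cannot be told apart.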

How the data were processed

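RNA of M1-activated BM-Mɸs was sequenced as single-end reads of 75 bases from stranded mRNA libraries of 6 ErbB4myeKO and 6 ErbB4FF mice. Groups and litter numbers come from the sample titles, and no label gives sex. The authors pseudoaligned reads with kallisto (submitters' processing notes: CASAVA, kallisto, sleuth and mm10; versions are not given in the sources used here) and deposited TPM for APPRIS principal transcripts, which are part of each library's total. The authors also deposited the mean natural log of normalized estimated counts (ln scale), used here only for depth. Columns of the authors' own comparison hold test statistics, p-values, q-values and a log2 ratio of genotype, and were not used.

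Of 29213 lines, 405 that repeat a transcript were dropped, leaving 28808 transcripts, which were summed to 22243 genes. Positions and symbols come from GENCODE M21 (GRCm38, the assembly of mm10), and transcript versions were ignored for Tnfsf9 and Tnfsf14. The 8780 genes whose mean reached 1 TPM were fitted as log2(TPM + 0.5), which understates changes of low genes, with limma 3.58.1 in R 4.3.3 (lmFit, eBayes with trend) and a term for litter, and p-values were adjusted by Benjamini-Hochberg over all of them. For single ligands a two-sided exact permutation test used all 64 ways to exchange littermates. Each ligand has 1 transcript, so that a fit by transcript adds nothing to its value. Littermates come from the same litter by the series' design text, and the correlation of their deviations over genes was between 0.273 and 0.774, while the largest between mice of different litters was 0.379, so that the pairing rests on the design text. On simulated TPM of 8780 genes the fit found 66% of altered genes at a log2 change of 1 and 88% at 2, with 4 false calls of 158. The simulated noise was normal and independent between genes. No change below 1 was simulated, so that recovery at the smaller size of the ligands' mean differences is not known. Other steps ran in Python 3.11.15 (scipy 1.17.1, pandas 2.3.3, numpy 2.4.6, figures by matplotlib 3.10.9).

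Genes named are the 10 ligands, the 3 genes with the highest r to each ligand over the filter, and at most the 3 genes with the smallest p of each further list. Marker genes, receptors and other genes outside this rule were chosen after their values were seen. Motif searches read 250 bases before RefSeq starts, and the AU-rich search was added later. The members, lists and tests were chosen with earlier results of these data known. Alternatives to the block, Y-linked covariate, pseudocount, filter, scaling, trend, transcript choice and litters were tried.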

Additional observations from a re-analysis of the deposited data

Results flagged for a closer look

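In 30 groups of 6 values (each ligand's log2(TPM + 0.5) by genotype and its 6 within-litter ratios), 4 had a lowest or highest value set apart from the rest by Dixon's criterion (95% level), where chance gives about 1 in 20 groups. Tnfsf8 was 1.40 TPM in the ErbB4myeKO library of litter 1, the highest by a gap of 0.735 of the group's range, and its ErbB4FF littermate was also the highest of its group, at 1.22 TPM. Tnfsf9 was 82.5 TPM in the ErbB4myeKO library of litter 2, with 79.2 TPM in its littermate. Tnfsf15 was 4.45 TPM in the ErbB4myeKO library of litter 5, the lowest of its group, with 4.10 TPM in its littermate. The log2 ratio of Tnfsf14 in litter 6 was 1.04, above the other 5 litters, from values of 0.869 and 0.166 TPM.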

How the results depend on the processing

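Over 149 refits of single ligands under the alternatives, 142 kept their direction and 7 reversed, but in 39 the log2 ratio could not move by construction, which leaves 103 of 110, and 0 had an adjusted p under 0.05 (smallest 0.4996). Tnf, Tnfsf8, Tnfsf9, Tnfsf10, Tnfsf14 and Tnfsf15 kept their sign in all that were run, Tnfsf10 between -0.39 and -0.23 and Tnfsf15 between 0.36 and 0.52. With a litter left out, Tnf lay between 0.26 and 0.60, Lta between -0.056 (without litter 4; -0.0015 without litter 2) and 0.22, Ltb between -0.71 and 0.0053 (without litter 3), Tnfsf4 between -0.20 and 0.14 (without litter 6) and Tnfsf13b between -0.065 and 0.0030 (without litter 6). Tnfsf4 was 0.075 with the Y-linked covariate and 0.22 without litters 5 and 6, a setting added after the data were seen. Littermates had nearly the same Y-linked level, so that the litter block already absorbs it and the covariate is no adjustment for sex. Pseudocounts of 0.1 and 1 gave 0.60 and 0.22 for Tnfsf14 and -0.59 and -0.19 for Ltb. Lists without litter 6 were counted after the data were seen. Causes were not tested.

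Without litter as a replicate block, genes with an unadjusted p under 0.05 were 75 in place of 721, and ligands 0 in place of 2. In that fit limma's unadjusted p was 0.556 for Tnfsf15, 0.478 for Tnfsf10 and 0.311 for Tnf. The block changed no adjusted call. Ligands with an unadjusted p under 0.05 were 1 with the Y-linked covariate and 1 without litters 5 and 6, where 653 and 620 of the 8780 genes reached that p. With each litter left out they were 1 to 2, all genes at that p were 410 to 860, and genes with an adjusted p under 0.05 were 0 to 1, the 1 without litter 3. Ligands with a mean ratio above 0 were 2 to 4 with a litter left out, against 3. Lta and Ltb were under a filter of 5 TPM and have no value there. The order of levels gave 2 steps at exact p = 0.0312 in ErbB4FF and 3 in ErbB4myeKO, of which Tnf over Tnfsf9 was in both, and the leave-one-out test of the steps was not run because 5 libraries allow no exact p under 0.05. Estimated counts of 4.23 to 25.5 limit Ltb, Tnfsf8 and Lta, and depth per library is unknown.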
